A study of Caenorhabditis elegans with 2 samples.

Results

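The 10 genes described here encode the proteins that fix the body wall muscle of Caenorhabditis elegans to its surroundings and build its contractile lattice. They were chosen by name when earlier results of these data were known, among them the position of a peak at unc-112 on the authors' final list. The ranks below are therefore a description and carry no test. The genes are 10 of 19973 protein-coding genes on the 6 nuclear chromosomes. Of them 5 are attachment genes (unc-112, unc-52, pat-3, deb-1 and unc-97) and 5 are sarcomere genes (unc-22, unc-89, lev-11, unc-54 and myo-3).

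The study mapped an eGFP-tagged LIN-39, a Hox transcription factor of the worm's mid-body, by chromatin immunoprecipitation and sequencing (ChIP-seq). All material came from whole second-stage (L2) larvae of mixed sex of strain OP18, genotype unc-119(ed3) III; wgIs18, where wgIs18 is the insertion named for lin-39. The labels give 1 group with 2 biological replicates, so every library carried both the unc-119 allele and the transgene, and no untagged or untreated sample was analysed here. Because whole animals were used, binding in muscle and binding in other cells that carry LIN-39 cannot be told apart at any of these genes.

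In worm body wall muscle, integrin in the cell membrane binds a basement membrane that contains perlecan, and a plaque of adaptor proteins inside the cell joins integrin to the filaments. Dense bodies anchor the thin filaments of actin, tropomyosin and troponin, while M-lines hold the thick filaments of myosin. Giant proteins of the titin family lie along the thick filaments. Hox factors are known to pattern the muscle precursors of the M lineage in this species.

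The authors deposited, on genome build ce11, candidate lists of 30000 regions for each replicate and for both replicates together (the pooled list), with 1 signal value per region in column 7. Rank 1 is the region of highest signal within a list. Each list is cut at the same length and runs on into weak signal. The peaks of the final, or optimal, list are exactly the strongest regions of the pooled list, so a pooled region is an optimal peak or ranks below all of them. A region was counted for a gene where its summit lay between 5000 bp upstream of the gene and the gene's end, a stretch called the gene's window. Sequencing depth is unknown from these lists.

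The sequences below are the summit and 100 bp to each side of it for the strongest pooled region, on the strand of the gene and 5′ to 3′. They lie under the best-ranked regions of unc-112, unc-22 and unc-52, at ranks 153, 1027 and 1098, and they differ in content. These are not the strongest regions of all the muscle genes. The best region of unc-89, at rank 940, stood ahead of those of unc-22 and unc-52. Its sequence and that of lev-11, at rank 1654, are not shown. Capitals mark GAGAGA or its reverse complement TCTCTC. The bases are from the RefSeq genome, build WBcel235, at chrV:14696928-14697128, chrIV:12012732-12012932 and chrII:14662112-14662312, all on the minus strand.
unc-112: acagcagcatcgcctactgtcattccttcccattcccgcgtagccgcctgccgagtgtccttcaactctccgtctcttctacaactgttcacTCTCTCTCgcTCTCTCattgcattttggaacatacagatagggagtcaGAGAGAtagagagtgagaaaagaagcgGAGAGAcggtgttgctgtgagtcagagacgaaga
unc-22: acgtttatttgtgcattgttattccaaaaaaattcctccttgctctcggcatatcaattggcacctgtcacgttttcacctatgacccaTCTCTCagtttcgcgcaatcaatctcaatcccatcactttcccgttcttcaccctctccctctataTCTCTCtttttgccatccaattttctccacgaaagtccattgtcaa
unc-52: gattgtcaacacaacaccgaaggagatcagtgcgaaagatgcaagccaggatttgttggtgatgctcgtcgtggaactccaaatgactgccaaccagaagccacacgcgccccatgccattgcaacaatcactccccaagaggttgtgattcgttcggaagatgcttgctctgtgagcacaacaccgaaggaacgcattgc
The unc-112 sequence has 5 matches, counting overlapping ones, 3 of them TCTCTC and 2 of them GAGAGA. That of unc-22 has 2 matches and that of unc-52, whose summit lies in a coding exon, has 0.

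Among the muscle genes, unc-112 was the 1 gene with an optimal peak, where 2.54% of all coding genes had one. UNC-112 is the worm kindlin, an adaptor at integrin adhesions. Its region, at V:14696873-14697182, had rank 153 in the pooled list, 204 in replicate 1 and 155 in replicate 2, so it stood high in each library. The signal in the pooled list was 51.6 and the q score, a column nominally on the −log10 scale, was 0.94. The pooled summit lay 374 bp upstream of the only annotated coding 5′ end of unc-112, in intergenic sequence. The summit of replicate 1 lay 392 bp upstream and that of replicate 2 lay 349 bp upstream, which puts them 43 bp apart. The nearest 5′ end of another gene, set-5, was 1938 bp from the pooled summit. The window of unc-112 held 3 further regions, all in the gene body. They had ranks 5223, 7908 and 12991.

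**Figure D1:**
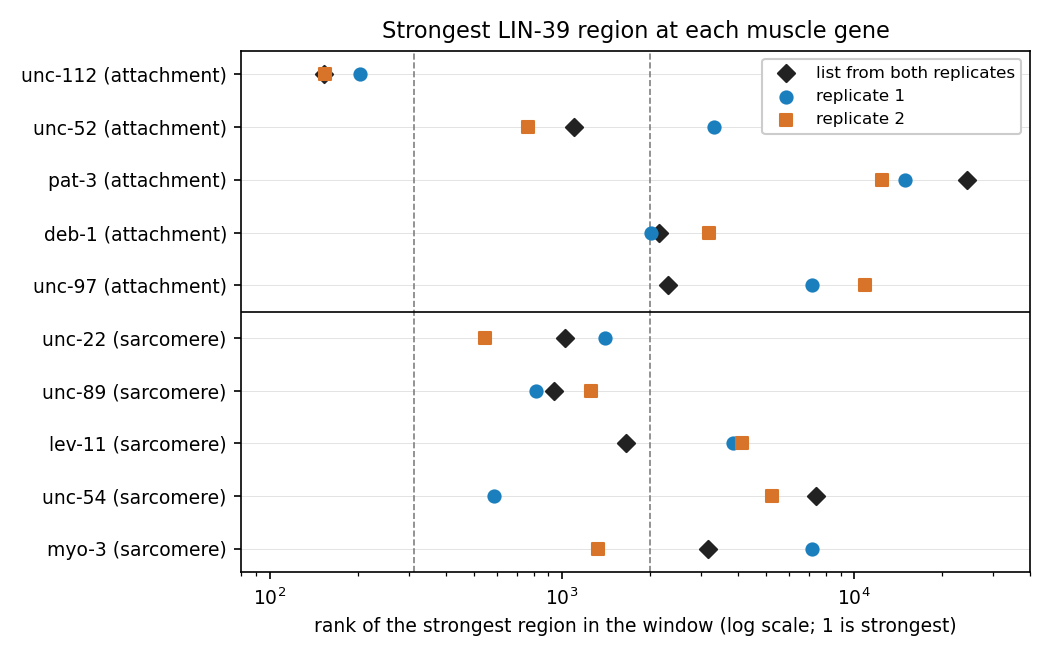
Rank of the strongest region in the window of each muscle gene (log axis, 1 is strongest) in the pooled list (diamonds), replicate 1 (circles) and replicate 2 (squares). Dashed lines stand at the last optimal rank and at rank 2000. The 3 symbols of unc-112 lie together between ranks 153 and 204, while those of unc-54 spread from 587 to 7429.

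The other attachment genes ranked lower, and in an order that differed between the libraries. The strongest region of unc-52, which encodes the basement membrane proteoglycan perlecan, was at II:14662057-14662366 in a coding exon, 22244 bp inside the gene. It had rank 1098 in the pooled list, 8876 in replicate 1 and 767 in replicate 2. The strongest region of unc-52 in replicate 1 was another one, at rank 3322. It overlapped a pooled region of rank 5591, 2376 bp upstream of the gene, which had rank 16321 in replicate 2. A weaker pooled region lay 887 bp upstream of the first 5′ end, at rank 14730, and had no overlap in replicate 1.

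DEB-1 is vinculin, the dense body protein that links integrin to actin. The best pooled region of deb-1, at IV:7095857-7096166, lay 1746 bp upstream of the gene in intergenic sequence, at rank 2147, with rank 2643 in replicate 1 and 12196 in replicate 2. Its next region, at rank 3803, lay in intron 10 of 15 of the longest transcript. The replicates reversed there, with rank 17588 in replicate 1 and 3188 in replicate 2. Thus each of the 2 leading pooled regions of deb-1 ranked better in a different replicate. The strongest deb-1 region of replicate 1 was neither of them. It had rank 2016, lay 8431 bp inside the gene and had no overlap in replicate 2.

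UNC-97 is the worm PINCH, a LIM-domain adaptor of the integrin plaque. It is the shortest of these genes, at 1833 bp, and its window held 1 pooled region, at X:5592702-5593011. That region lay 276 bp upstream of the 5′ end, at rank 2318 in the pooled list, 7206 in replicate 1 and 10931 in replicate 2. The replicate summits stood 11 bp apart, so the position recurred although both replicate ranks were modest.

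PAT-3 is the beta integrin subunit of the attachments. Its best pooled region had rank 24479, and of its 3 regions 0 overlapped a region of both replicates. The best rank in its window was 14938 in replicate 1 and 12497 in replicate 2. Regions at least as strong as its best pooled one were found for 87.3% of the 4206 genes with a window within 20% of the same length.

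None of the 5 sarcomere genes had an optimal peak, where 2.54% of all coding genes had one. The windows of the sarcomere genes held 67 regions in 143530 bp, or 0.467 per kb. Those of the attachment genes held 28 in 83040 bp, or 0.337 per kb. Over the windows of all coding genes the density was 0.2995 per kb. Single genes of both sets overlapped, with 0.427 per kb at deb-1 and 0.415 at unc-89. UNC-22 is twitchin and UNC-89 is obscurin, both giant proteins of the thick filament lattice with kinase domains. The best region of unc-22 in the pooled list, at rank 1027, lay 1825 bp upstream of the gene at IV:12012677-12012986. A noncoding gene, ZK617.18, spans the summit, and the nearest coding 5′ end belonged to another gene. The region had rank 1400 in replicate 1 and 9366 in replicate 2. The second region of unc-22 lay inside the gene, 15158 bp from its start and 526 bp downstream of an internal 5′ end, at rank 1119. There the order of the replicates turned, with rank 6948 in replicate 1 and 545 in replicate 2.

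The window of unc-89 held 3 regions of rank 2000 or better, all inside the gene. The strongest, at I:4064183-4064492 in a coding exon, had rank 940 in the pooled list, 1808 in replicate 1 and 3553 in replicate 2, and the replicate summits were 4 bp apart. The nearest coding 5′ end, 8790 bp away, belonged to clec-89, a C-type lectin-like gene. The region at rank 1339 lay 22 bp upstream of an internal 5′ end of unc-89, 11412 bp from the gene's start, with rank 17418 in replicate 1 and 1685 in replicate 2. The region at rank 1625 lay in intron 24 of 47, with ranks 6484 and 5787 in replicates 1 and 2.

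LEV-11 is tropomyosin, which lies along the thin filament. Its best region, at I:14628043-14628352 in intron 3 of 9 of its longest transcript, had rank 1654. It had rank 4259 in replicate 1 and 4151 in replicate 2. These 2 ranks were close to each other, as at unc-112 but far lower in the lists.

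In the pooled list, though not in each replicate list, the genes of the 2 myosin heavy chains of body wall muscle were among the weaker ones. UNC-54 is the major heavy chain and MYO-3 the minor one, which occupies the middle of the thick filament. The best pooled region of unc-54 had rank 7429 and lay 1349 bp inside the gene. In replicate 1 the strongest region of the window had rank 587 and overlapped it, while the replicate 2 region that overlapped it had rank 9252 and did not reach the replicate 1 region. In replicate 2 the strongest region, at rank 5226, lay elsewhere, with its own summit 106 bp upstream of the start. The best pooled region of myo-3 lay 2958 bp inside the gene, in a coding exon, at rank 3161. It had rank 9831 in replicate 1 and 1329 in replicate 2.

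A pooled region of rank 684 overlapped the far end of unc-54 with its summit 58 bp past the gene, and so was not counted. It lay 16 bp upstream of the 5′ end of the neighbouring gene aex-5, with rank 1748 in replicate 1 and 2277 in replicate 2. This region was singled out after its values had been seen. Of the regions counted, the farthest upstream was 4805 bp from unc-22, at rank 26103. The first one beyond the limit was 5206 bp from unc-89, at rank 26463.

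**Figure D2:**
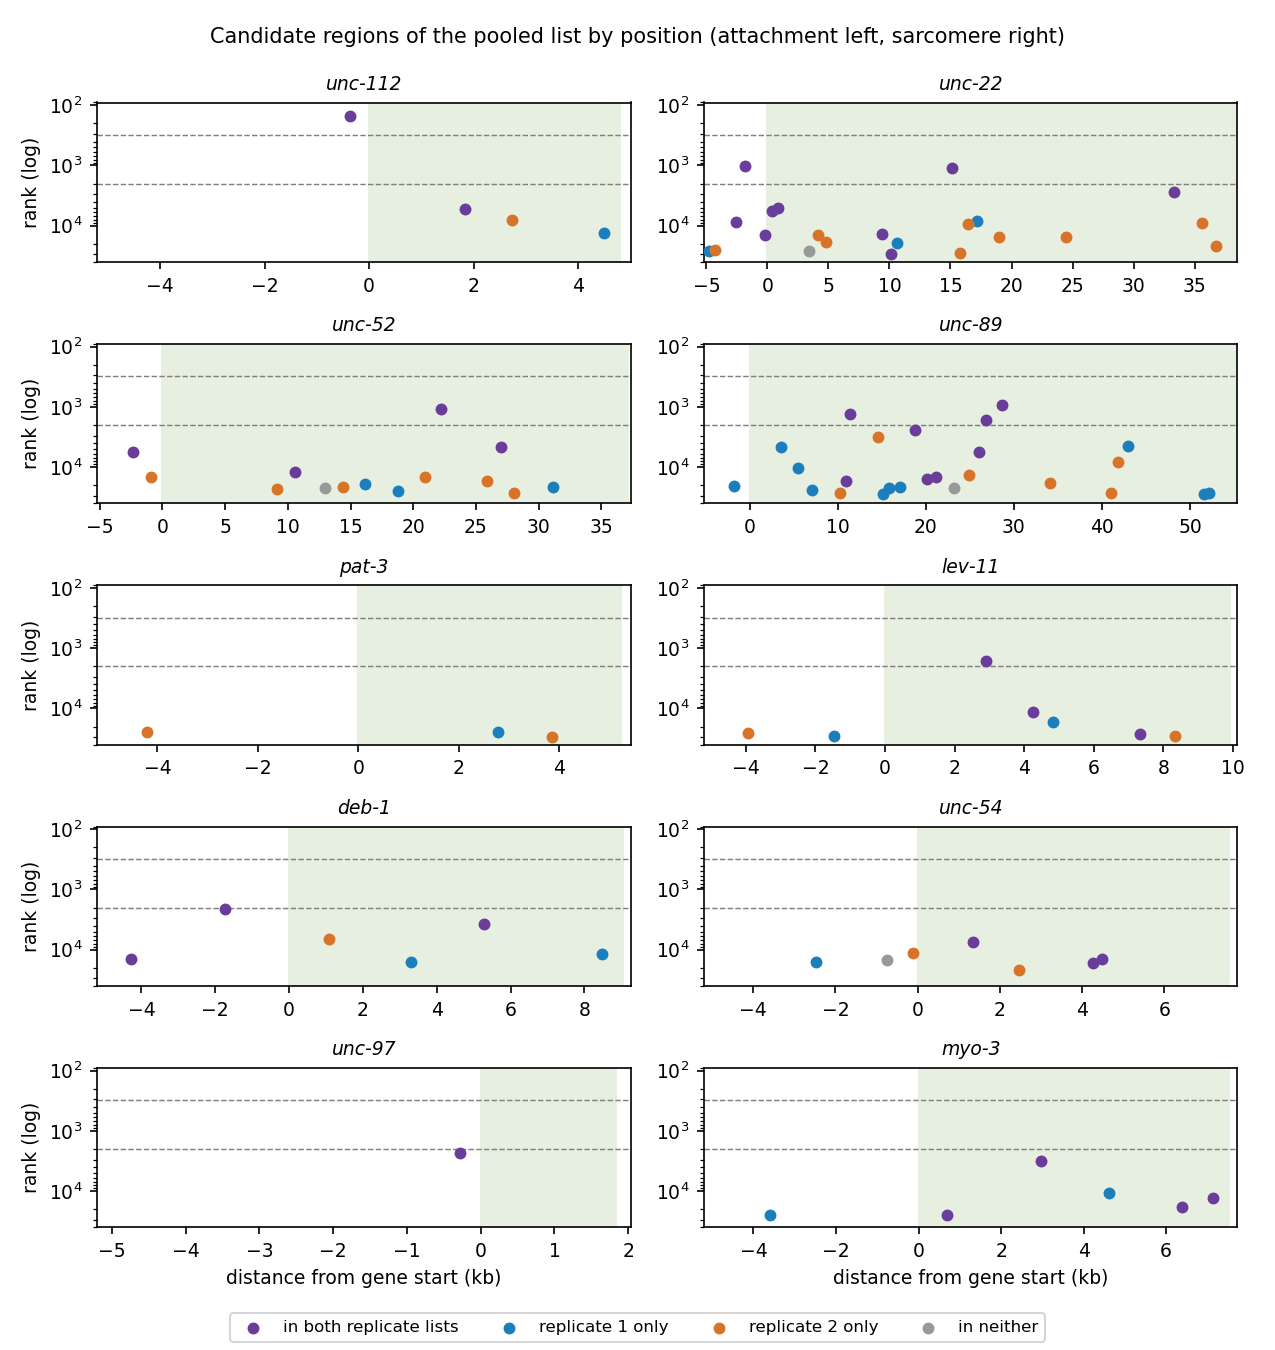
Every pooled region in the 10 windows, by distance of its summit from the gene start (kb, negative is upstream) and rank (log axis, strongest at the top); shading is the gene body and dashed lines are the last optimal rank and rank 2000. Colours give the replicate lists that hold an overlapping region. The strongest point lies 374 bp upstream of unc-112, and most points of unc-22, unc-52 and unc-89 lie inside the gene.

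Taken as counts, 5 of the 10 muscle genes had a region among the 2000 strongest of the pooled list (unc-112, unc-52, unc-22, unc-89 and lev-11), where 13.8% of all coding genes had one. Among the 2000 strongest of replicate 1, 4 genes had a region (unc-112, unc-22, unc-89 and unc-54), where 14% of all coding genes had one. For replicate 2 the count was 5 (unc-112, unc-52, unc-22, unc-89 and myo-3), where 14.2% of all coding genes had one. So unc-112, unc-22 and unc-89 were in both replicate sets. At unc-22 the replicates' leading regions lay at different places, and at unc-89 too.

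Length moves with these counts. The median window was 13317 bp for the muscle genes and 7027 bp for all coding genes, and a longer window holds more regions. Among genes with a window within 20% of the same length, a region at least as strong as the best pooled one was found for 1.79% of 4874 genes for unc-112. The share was 21.8% of 55 genes for unc-52, 17.6% of 51 for unc-22 and 18.99% of 1353 for lev-11. For unc-89 it was 27.3% of only 11 genes. It was 13.02% of 13008 for unc-97, 21.8% of 1561 for deb-1, 29.1% of 2215 for myo-3 and 52.9% of 2193 for unc-54. By this measure unc-112 had the smallest share of the 10 in the pooled list, and also in each replicate list, at 2.15% in replicate 1 and 1.76% in replicate 2. The order of the others changed with the list. The share for unc-97 was 36.8% in replicate 1 and 51.35% in replicate 2, well above its pooled share. For unc-54 it was 6.52% in replicate 1 and 44% in replicate 2, and for unc-52 it was 67.3% in replicate 1 and 23.6% in replicate 2. For unc-22 it was 39.2% in replicate 1 and 11.8% in replicate 2, and for myo-3 it was 51.3% in replicate 1 and 14.99% in replicate 2. It was 36.4% and 42.9% for lev-11 in replicates 1 and 2, and 21.8% and 33.5% for deb-1. For unc-89 it was 18.2% in replicate 1 and 36.4% in replicate 2, again of 11 genes.

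All 10 genes had at least 1 region in the pooled list, as did 87.7% of coding genes. A pooled region with overlap in both replicate lists was present for 9 genes, all but pat-3, against 52.7% of coding genes. With 10000 bp upstream the count was 10. Neither share is of genes with a window of like length, and a longer window holds more regions. A pooled region at 1 of the gene's own coding 5′ ends, from 1000 bp upstream to 200 bp downstream, was present for 7 genes, all but pat-3, deb-1 and myo-3, against 37.1% of coding genes. Genes with many annotated 5′ ends have more chances here, and lev-11 has 11, unc-52 has 7 and unc-22 and unc-89 have 5 each. The best region at an own 5′ end ranked 153 at unc-112, 1339 at unc-89 and 2318 at unc-97. It ranked only 11164 at unc-54, 14460 at unc-22, 14730 at unc-52 and 16934 at lev-11. Those of unc-54, unc-52 and lev-11 overlapped a region of only 1 replicate.

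The windows held 95 pooled regions over 226570 bp, of which 61 were in the windows of unc-22, unc-89 and unc-52. This was 0.419 regions per kb, against 0.2995 per kb over the windows of all coding genes. The density was above the median of windows of like length for 9 of 10 genes, with unc-97 below it. At pat-3 the margin was small, 0.2936 per kb against 0.2866, from 3 regions that ranked 24479 at best. The highest was at unc-54, 0.556 per kb, where 2 of the 7 regions overlap each other. Gene bodies held 0.430 regions per kb and the upstream stretches 0.38, against 0.301 and 0.298 in all coding genes. Their median rank was 14730, and 47 of them (49.5%) ranked below 15000, against 50% of all pooled regions.

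Of the 95 pooled regions 37 (38.9%) overlapped a region in both replicate lists, against 34.9% of all 30000. A further 25 overlapped replicate 1 only (26.3%, against 30.4% of all), 29 replicate 2 only (30.5%, against 26.99%) and 4 neither (4.21%, against 7.68%). All 8 regions of rank 2000 or better were in both lists, as were 91.3% of all pooled regions of that rank, and 7 of 47 below rank 15000 were (14.9%, against 14.5% of all such regions). In the 37 shared regions the better replicate rank was ahead of the other by a median ratio of 2.47, against 2.21 over all shared regions, and for 12 the ratio was above 5. Replicate 1 had the better rank at 15 of the 37. The replicate summits lay a median of 101 bp apart, against 65 bp over all shared regions. Among the 37, the overlapping unc-54 regions of ranks 14212 and 16631 matched the same replicate regions, at ranks 21523 and 17421. That agreement is therefore counted more than once. The unc-112 promoter region was the only one of the 95 with rank 2000 or better in both replicates, and 3 regions had rank 5000 or better in both. No share over all pooled regions stands beside the counts by ratio above 5, better replicate or rank in both replicates. Those counts describe the muscle gene regions alone.

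**Figure D3:**
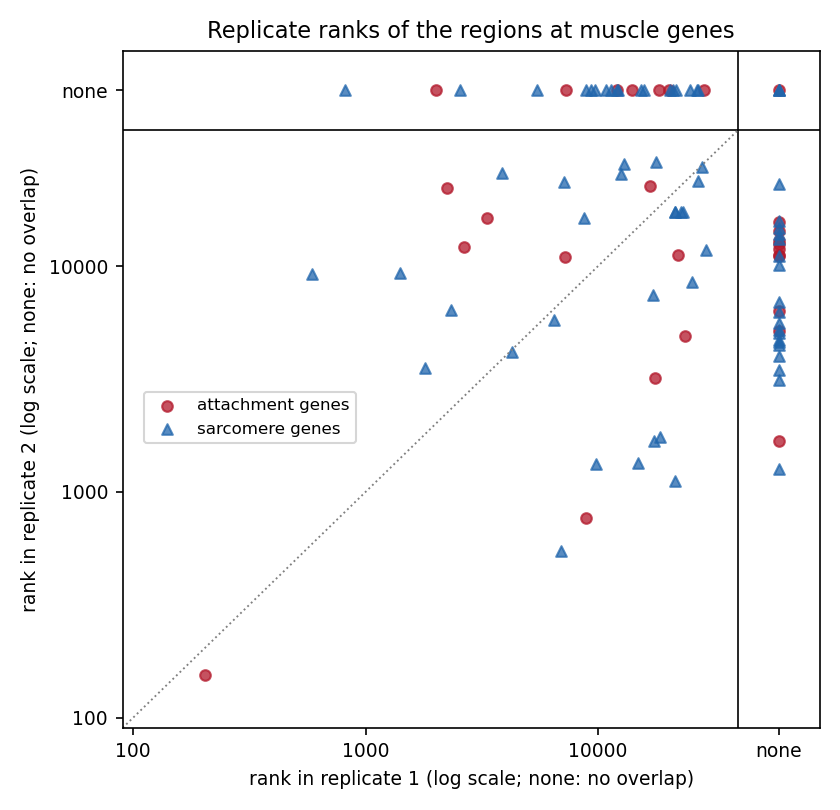
Replicate ranks (log axes) of the 95 pooled regions at the muscle genes, replicate 1 across and replicate 2 up; the strips marked "none" hold regions with no overlap in that list, and the dotted line is equal rank. The point nearest the lower left corner is the unc-112 promoter region, with ranks 204 and 155.

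In position, 42 of the 95 summits lay in introns (44.2%), 38 in coding exons (40%), 14 in intergenic sequence (14.7%) and 1 in a UTR. Over all pooled regions introns held 30.6%, coding exons 27.05% and intergenic sequence 36.9%. The windows of these long genes consist mostly of gene body, 176570 of 226570 bp, which moves with that share. The nearest coding 5′ end belonged to the gene itself for 69 of the 95 regions. For the rest it belonged to a neighbour, such as clec-89. No share over the windows of all coding genes stands beside this count, which describes position alone.

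Short words were looked for in both orientations in the 100 bp on either side of each summit, and a match describes the sequence alone. GAGAGA was found at 23 of the 95 regions (24.2%), against 13.1% of all pooled regions and 45% of the optimal peaks. Of the 8 muscle gene regions of rank 2000 or better it was at 5, namely those at unc-112, unc-22 (rank 1027), unc-89 (ranks 940 and 1339) and lev-11, against 25.95% of the 2000 strongest regions. TGATNNAT, the Hox with Pbx consensus word, was at 15 of the 95 regions (15.8%), against 17.0% of all. TGATAA was at 9 (9.47%, against 18.85%) and TAATTA at 4 (4.21%, against 9.22%). CAGCTG, an E-box of the kind bound by myogenic bHLH factors, was at 0 of 95, against 4.30% of all regions. The GC content of the same stretches had a median of 40.8%, against 35.8% for all pooled regions and 44.8% for the optimal peaks. The part of GC content in the word counts was not tested.

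Other genes of the same structures were taken from a list of names. Of 34 other attachment genes 1 had an optimal peak and 15 (44.1%) had one among the 2000 strongest. Of 33 other sarcomere and contraction genes 2 and 12 (36.4%) did. The same background applies, 2.54% and 13.8% of all coding genes. Their median windows were 13206.5 bp and 7942 bp. The region of tln-1, which encodes talin, the integrin activator, was the strongest, at rank 50 in the pooled list, 17 in replicate 1 and 422 in replicate 2. It lay 2282 bp upstream of tln-1.

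The actin capping protein subunit genes cap-1 and cap-2 had the other optimal peaks. The cap-1 region had rank 243 in the pooled list, 3472 in replicate 1 and 139 in replicate 2, and the nearest 5′ end belonged to another gene. The cap-2 region, 199 bp upstream of the gene, was the lowest-ranked of the optimal peaks. The region of pat-2, the alpha integrin gene and partner of pat-3, lay 1007 bp upstream of it at rank 557, with rank 5963 in replicate 1 and 580 in replicate 2. Those of let-805 and mup-4, genes of the epidermal side of the attachment, had ranks 510 and 562. The let-805 region had rank 1295 in replicate 1 and 15660 in replicate 2, and the mup-4 region had rank 9411 in replicate 1 and a far better one in replicate 2. That of ttn-1, a titin-like gene, had rank 598, with rank 528 in replicate 1 and 6991 in replicate 2, and that of act-2, an actin gene, rank 694. The act-2 region had rank 303 in replicate 1 and no overlap in replicate 2, and it lay 4402 bp upstream of act-2 with the 5′ end of another gene nearer. A single region of rank 752 lay in the windows of both mlc-1 and mlc-2, the regulatory myosin light chain genes, with rank 823 in replicate 1 and 3638 in replicate 2. The actin genes resemble each other closely, as do mlc-1 and mlc-2, so reads may be assigned to the wrong copy. For unc-95, tni-3 and tnc-2, named after their values had been seen, the windows held 0 pooled regions.

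**Figure D4:**
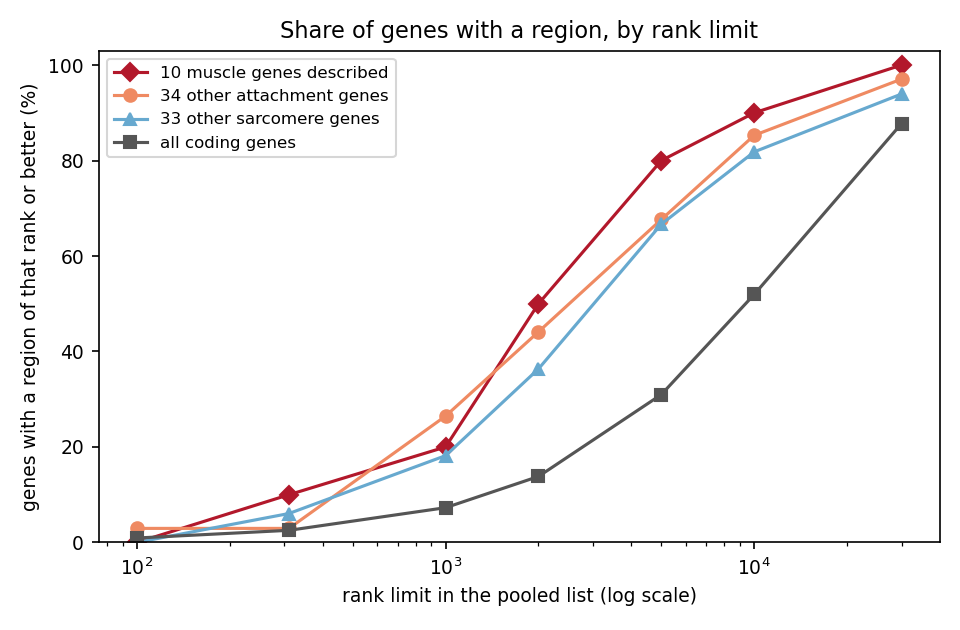
Percent of genes with a region of a given rank or better in the pooled list (log axis of rank limits) for the 10 muscle genes, 34 other attachment genes, 33 other sarcomere genes and all 19973 coding genes. At rank 2000 the shares are 50%, 44.1%, 36.4% and 13.8%; the windows of the first 3 groups are longer than those of all coding genes.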

How the data were processed

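The authors deposited narrowPeak lists on ce10 and ce11, and the ce11 lists were used. Per the deposited text files, each candidate list came from the alignments of 1 replicate or of both, and the optimal list, of 311 peaks, was derived from the candidate lists. Aligner, caller and IDR cut-off were not found in the labels or headers. The signal in column 7, as deposited by the authors, ranked regions within a list and was never compared between lists. The q column, as deposited, was treated as a score, since 19118 pooled values lay below 0. Gene models were Ensembl release 115. Region width was 310 bp in the pooled list, 330 bp in replicate 1 and 300 bp in replicate 2.

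A pooled region was found in a replicate where that list overlapped it by 1 bp or more, and the strongest overlap gave the replicate rank. Tied signals shared the better rank. Genes of like window length were those within 20%. The members and lists were chosen with earlier results of these data known. The text names the 10 genes, up to 10 other listed genes with a region among the 2000 strongest, and neighbours nearest to the 10 genes' regions of that rank, of which a neighbour is not reported here. Outside that rule it names aex-5, set-5, ZK617.18 and the listed genes with 0 regions, after their values were seen. The symbol tmd-1 found no gene model. Counting was tested on simulated data. Alternatives changed the window, overlap, rank limit and list. Tools were Python 3.11.15, NumPy 2.4.6, pandas 2.3.3 and matplotlib 3.10.9.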

Additional observations from a re-analysis of the deposited data

How the results depend on the processing

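The 1 gene with an optimal peak, unc-112, depended on upstream sequence: with the gene body only, the count was 0, by rank and by the optimal list alike. The 5 genes among the 2000 strongest became 2 at a limit of 1000, where 7.28% of all coding genes had a region. They became 8 at a limit of 4000, for which no share over all coding genes was taken. At a limit of 5000 the count was also 8, against 30.98% of all coding genes. Leaving out replicate 2 or replicate 1, so that the other list stood alone, gave 4 and 5. The 37 regions and 9 genes found in both replicates became 23 regions with summits within 100 bp. They became 3 regions and 3 genes when only the 5000 strongest regions of each replicate were used. In a check chosen once the data were known, the matching replicate regions also overlapped each other at 36 of the 37, the exception being at unc-54. Counting any overlap with the window moved the best rank of unc-54 to 684 and gave 6 genes among the 2000 strongest. The gene body only gave 4. Taking 10000 bp upstream moved the best rank of pat-3 to 6863 and gave 10 genes found in both replicates, where the gene body only gave 8. No paired analysis was possible because there was 1 group of samples. With no depth and no control library, weak regions cannot be told from background.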
